A study of Homo sapiens with 16 samples.

Results

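The data described here are the H3K27ac levels near 9 genes of the AP-1 transcription factor family in THP-1 cells, a human monocytic leukemia cell line. The genes were FOS, FOSB, FOSL1 and FOSL2 of the FOS subfamily, JUN, JUNB and JUND of the JUN subfamily, and BATF and BATF3 of the BATF subfamily. H3K27ac, an acetylated lysine of histone H3 that marks active promoters and enhancers, was measured by ChIP-seq and counted in 1000 bp windows placed on merged ATAC-seq peaks. A window was a member if the table named one of these genes as its nearest and placed it within 50000 bp of that gene's TSS. This gave 65 member windows of 151654 in all, with 15 at FOS, 12 at BATF3, 9 at FOSL2, 9 at FOSB, 8 at BATF, 5 at JUN, 3 at JUNB, 2 at JUND and 2 at FOSL1. Nearness does not show which gene a window acts on, and RNA is not part of these data.

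The 4 groups held 2 libraries each. WT cells are described as carrying Cas9 with a lentiviral control sgRNA, and USP18−/− cells were edited with sgRNAs against USP18 and, by the study's methods, grown from sorted single cells. The study's text calls the WT cells parental, and its methods for the knockout lines name no control sgRNA for them. Whether the genotypes were matched for Cas9 and vector is therefore not certain. Each genotype was taken without interferon and after 6 h of IFNα at 1000 U/ml. The sources used here do not say whether all USP18−/− libraries came from 1 clone, and the loss of USP18 and a property of the clone or clones used cannot be told apart. The labels do not say that the libraries of a group came from separate cultures, so p-values measure the spread between these libraries, which may be technical.

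AP-1 is a dimer of bZIP proteins. FOS proteins bind DNA with a JUN partner, JUN proteins also pair with themselves, and BATF and BATF3 pair with JUN proteins and bind composite sites with IRF factors in immune cells. FOS, FOSB, JUN and JUNB are immediate early genes, switched on within minutes by MAP kinase signalling, through SRF and ETS factors at CArG boxes and through CREB/ATF factors at cAMP response elements (CRE). IFNα signals through the JAK kinases to a complex of STAT proteins and IRF9, which binds the interferon-stimulated response element (ISRE), and USP18 holds this signal down at the receptor.

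The libraries held 9046141 to 12935453.5 tags in all windows. These were 36.1% to 37.3% of the mapped tags in WT and 38.4% to 42.5% in USP18−/− libraries, and the part of this gap in the results was not tested. Of 9 monocyte markers, all 9 had a tested window at the TSS, and their summed level was 216 to 227 CPM in WT and 230 to 243 CPM in USP18−/− libraries. This sum hides opposite shifts of single markers. From untreated WT to IFN treated USP18−/− cells, the mean went from 66.9 to 129.5 CPM at SPI1 and from 52.8 to 4.32 CPM at MPO. Of 6 markers of other cell types, CD3E, MS4A1, EPCAM and ALB had no tested window at the TSS, while PECAM1, which monocytes also carry, and COL1A1 had one. The sum of the last 2 was 80.4 to 86.7 CPM in WT, 95.3 and 97.9 CPM in untreated USP18−/− and 61.1 and 66.3 CPM in IFN treated USP18−/− libraries. Levels are given as CPM, the count scaled for the library size, which was adjusted by edgeR's TMM factors. All windows have the same length, so levels were compared between genes without scaling for it. The input libraries were not analysed, so local differences in signal apart from the mark were not removed. In bulk samples, fewer cells with a mark and less of it per cell cannot be told apart.

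Testing required 10 or more counts in 2 or more of the 8 libraries, which 62 of the 65 windows met. A window was called changed at an adjusted p under 0.05 with a log2 fold change beyond 1 either way. A fold change given in untreated cells, with IFN, or with IFN in both genotypes compares USP18−/− with WT cells. An IFN effect is given for a named genotype. The p is from the quasi-likelihood F test of edgeR, adjusted by the Benjamini-Hochberg method over all 123276 tested windows, and is written as edgeR adjusted p. Of the 65 windows, 25 overlapped another window and share tags with it, so these are not independent values.

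The 4 windows that carry the IFN responses below are shown by 200 bp of their hg38 sequence, on the plus strand. Capitals mark exact matches on either strand to an ISRE core (TTTC, any 2 bases, TTTC) or to TGANTCA. That pattern covers the TPA response element that AP-1 dimers bind, TGACTCA or TGAGTCA, and also admits TGATTCA and TGAATCA. Matches to the interferon gamma-activated site (GAS, TTCNNNGAA), to the CRE, to a CArG box and to a kappaB site were searched too.
BATF, −7213 bp, chr14:75515028-75515227: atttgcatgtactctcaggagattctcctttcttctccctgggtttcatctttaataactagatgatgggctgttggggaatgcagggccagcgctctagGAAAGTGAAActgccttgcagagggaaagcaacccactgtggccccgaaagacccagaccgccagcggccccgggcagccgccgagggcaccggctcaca
FOS, −31057 bp, chr14:75247641-75247840: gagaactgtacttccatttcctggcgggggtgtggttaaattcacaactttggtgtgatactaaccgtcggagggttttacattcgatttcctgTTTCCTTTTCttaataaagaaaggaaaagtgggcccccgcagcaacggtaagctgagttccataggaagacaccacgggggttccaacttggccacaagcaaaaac
BATF3, +31988 bp, chr1:212667897-212668096: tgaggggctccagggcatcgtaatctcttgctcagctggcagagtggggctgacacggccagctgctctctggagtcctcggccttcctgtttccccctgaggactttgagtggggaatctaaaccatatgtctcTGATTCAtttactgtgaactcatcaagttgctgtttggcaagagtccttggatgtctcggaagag
FOSL2, −14397 bp, chr2:28378415-28378614: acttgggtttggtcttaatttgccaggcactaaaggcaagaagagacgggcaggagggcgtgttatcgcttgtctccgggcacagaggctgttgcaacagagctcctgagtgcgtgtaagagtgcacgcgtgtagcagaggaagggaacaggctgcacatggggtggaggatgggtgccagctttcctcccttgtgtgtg
The ISRE core lies in the central 200 bp of 5.43% of all windows and of 2 of the 65 member windows, BATF at −7213 bp and FOS at −31057 bp. The wider TGANTCA pattern lies in the central 200 bp of 12.9% of all windows and of 11 member windows. Over the whole 1000 bp, 20 member windows (30.8%) held TGANTCA against 31.1% of all windows, and 7 held an ISRE core (10.8% against 17.2%). A match describes these letters and does not show that a factor binds there.

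Across the 62 tested windows, IFN in WT cells gave 0 called higher and 0 called lower by edgeR, where 0.344% of all tested windows were called higher and 0.0381% lower. At an unadjusted p under 0.05, 3 member windows were higher and 0 lower, and DESeq2 also called 0. In untreated USP18−/− cells, 11 were higher and 2 lower than in WT cells, against 5.66% of all windows called higher and 10.8% lower. With IFN in both genotypes, 17 windows stood higher and 9 lower in USP18−/− than in WT cells, against 11.3% higher and 13.4% lower over all windows. For IFN in USP18−/− cells, 4 were called higher and 3 lower, against 7.14% and 4.28%. The difference of the IFN effects, tested directly, was called higher at 4 and lower at 3, against 4.66% and 2.51%. As shares of the 62 tested members, these were 17.7% and 3.23% in untreated genotypes, 27.4% and 14.5% in IFN treated genotypes, and 6.45% and 4.84% both for IFN in USP18−/− cells and for the difference. The members' shares for IFN in USP18−/− cells, and the share lower in IFN treated genotypes, lay near those of all windows.

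**Figure D1:**
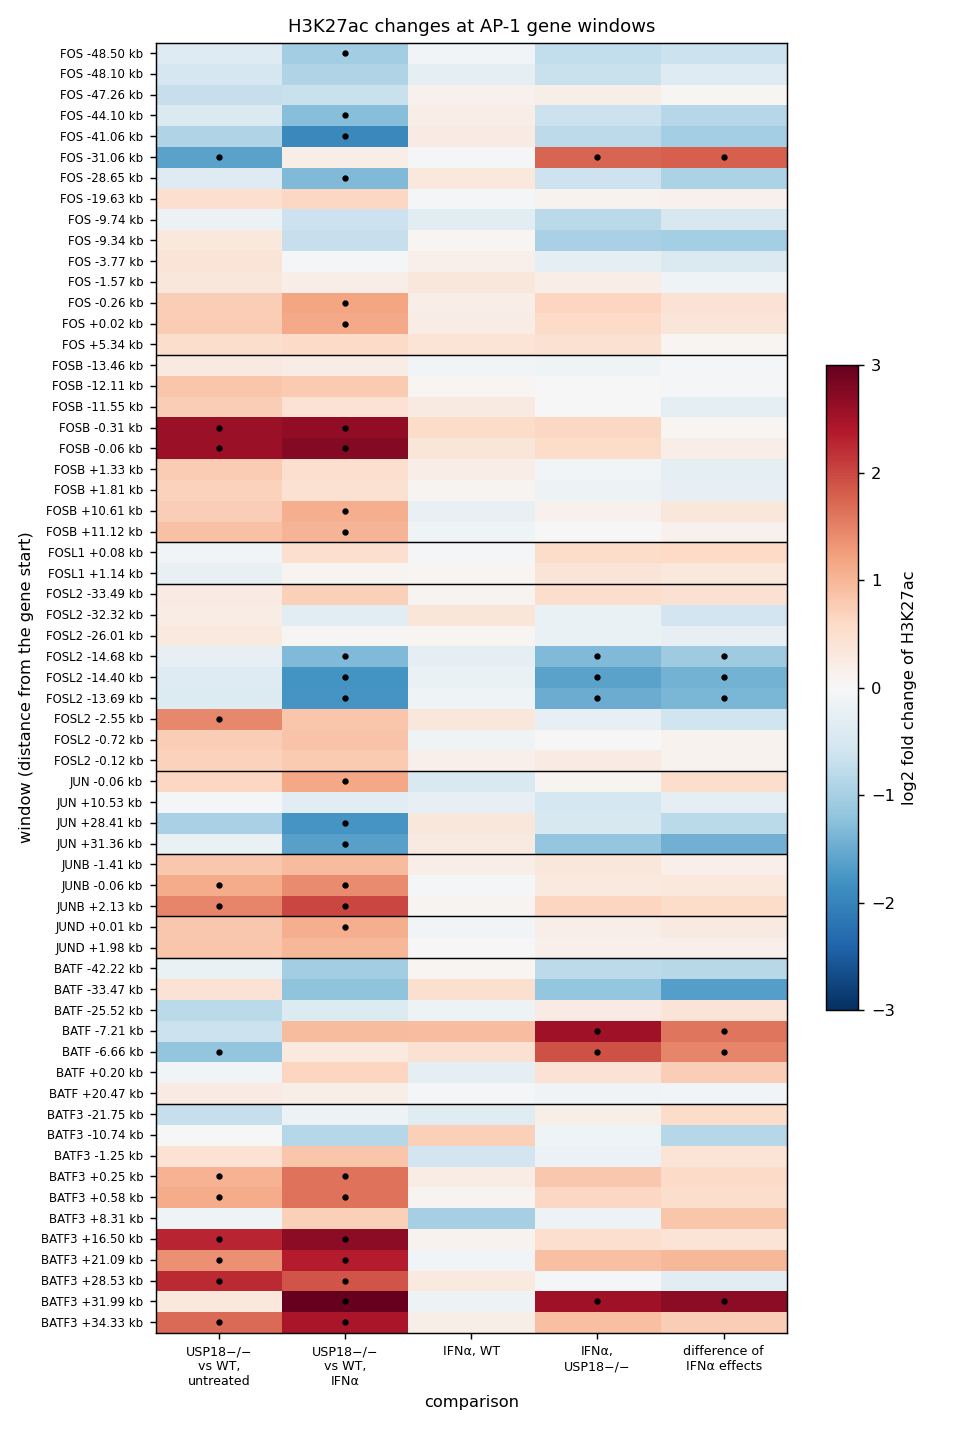
Log2 fold changes of H3K27ac (colour, from −3 to 3) at the 62 tested AP-1 gene windows, in rows by gene and distance from its TSS in kb, for 5 comparisons in columns. Dots mark windows called changed, with 11 higher and 2 lower in untreated USP18−/− against WT cells and none in the column for IFN in WT cells.

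Called windows were counted apart near the TSS and further away. Within 3000 bp of a TSS, 7 of 22 member windows were higher in untreated USP18−/− cells and 10 of 22 with IFN in both genotypes, and 0 were lower in either. Of all tested windows within 3000 bp, 7.28% were called higher and 4.45% lower in untreated cells, and 14.6% and 5.81% with IFN. Over 3000 bp, 4 of 40 tested windows were higher and 2 lower in untreated cells, and 7 were higher and 9 lower with IFN. Of all distal windows, 5.17% were called higher and 12.7% lower in untreated cells, and 10.3% and 15.7% with IFN. The median log2 fold change of the 22 proximal windows was 0.77 in untreated and 0.97 in IFN treated cells, beside 0.30 and 0.34 over all proximal windows. The distal medians were −0.01 and −0.10 for the members and −0.14 and −0.13 for all windows, so that proximal values stood above distal ones over all windows too. When proximal and distal windows were scaled apart, the proximal medians were 0.46 and 0.62, with 4 and 6 windows called higher, and scaling by the sum of counts also gave 4 and 6. Scaling by the sum of counts moves the median of all windows to −0.16 in untreated and −0.27 in IFN treated cells. Within 5 Mb of each gene's TSS, the median log2 fold change of all other windows in untreated cells lay between −0.28 at JUN and 0.37 at FOSB.

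At the TSS windows, the genes fell in an upper and a lower tier that held in all 4 groups. FOSL2, JUND, FOS and JUNB were the 4 highest in all 4 groups, with means of 18.5 to 39.4 CPM in untreated WT cells. FOSL1, BATF, JUN, BATF3 and FOSB followed with 8.94, 5.29, 4.64, 4.16 and 1.46 CPM. In untreated WT cells no 2 neighbours in this order overlapped between their libraries. In IFN treated USP18−/− cells the order was FOSL2, FOS, JUND, JUNB, BATF3, FOSB, FOSL1, JUN and BATF, in which FOS and JUND, FOSB and FOSL1, and JUN and BATF overlapped with their neighbours. BATF3 and FOSB, at rank 8 and 9 in untreated WT cells, were at rank 5 and 6 there. These orders hold for the TSS windows only. By the highest window of a gene in each library, JUNB averaged 45.6 and FOSL2 39.7 CPM in untreated WT cells. Taken that way, BATF3 averaged 63.4 CPM in untreated USP18−/− cells.

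**Figure D2:**
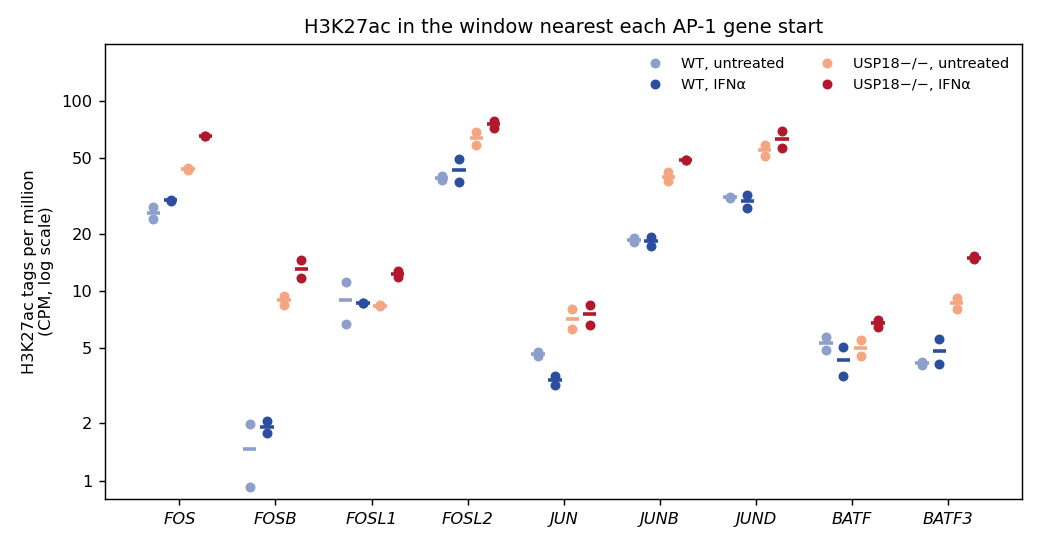
H3K27ac in CPM (log axis) in the window nearest each gene's TSS, with each library as a point, the mean of the 2 libraries as a bar, and the 4 groups in colours. At FOSB both USP18−/− groups lie between 8.37 and 14.5 CPM, above all 4 WT libraries at 0.93 to 2.05 CPM, and at FOSL1 the untreated groups overlap.

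FOS, an immediate early gene, encodes the partner that stabilises JUN on DNA. Its TSS window, chr14:75278296-75279296 over the promoter and first exon, held 27.7 and 23.9 CPM in untreated WT and 29.6 and 30.3 CPM in IFN treated WT libraries. It held 43.1 and 44.3 CPM in untreated and 65.5 and 65.5 CPM in IFN treated USP18−/− libraries. Both USP18−/− groups lay above every WT library, and the IFN treated USP18−/− libraries were the highest. With IFN in both genotypes the log2 fold change was 1.13 (SE 0.11, edgeR adjusted p = 5.7e-16), and in untreated cells it was 0.76 (SE 0.11, edgeR adjusted p = 1.3e-08), under the fold threshold. IFN in USP18−/− cells gave 0.58 (SE 0.10), also under it. The overlapping window at −264 bp gave 1.17 with IFN (SE 0.11). Under scaling by the sum of counts, or with proximal windows scaled apart, the TSS window was no longer called with IFN, and its lowest value under any alternative was 0.78. The promoter sequence is shown because it holds the CArG box of the serum response element, in capitals, through which SRF acts.
FOS, −264 bp, chr14:75278414-75278613: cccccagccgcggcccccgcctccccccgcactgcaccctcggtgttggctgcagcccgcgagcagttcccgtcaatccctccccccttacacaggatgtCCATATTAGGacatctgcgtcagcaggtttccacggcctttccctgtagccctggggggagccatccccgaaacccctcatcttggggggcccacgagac
A CArG box lies in the central 200 bp of 1.32% of all windows and of 3 member windows.

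Far upstream of FOS the pattern was different. At −31057 bp, chr14:75247221-75248221 in an intergenic stretch by the table's annotation, untreated WT libraries held 5.99 and 6.53 CPM and IFN treated WT libraries 5.55 and 6.56 CPM. Untreated USP18−/− libraries held 2.09 and 2.02 CPM, and IFN treated ones 7.81 and 6.01 CPM. The untreated USP18−/− libraries stood below the other 6, which overlapped with each other. The window was lower in untreated USP18−/− than WT cells, with a log2 fold change of −1.60 (SE 0.27, edgeR adjusted p = 5.3e-07), and rose with IFN in USP18−/− cells by 1.74 (SE 0.26, edgeR adjusted p = 3.7e-08). The IFN effect in WT cells was −0.05 (SE 0.22), and the effects differed by 1.80 (SE 0.35, edgeR adjusted p = 4.3e-05). These 3 calls share the untreated USP18−/− libraries. Here lies 1 of the 2 ISRE cores printed above, at chr14:75247735-75247744.

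Of the other FOS windows, 4 were called lower in USP18−/− than WT cells with IFN in both genotypes, at −48500, −44096, −41056 and −28647 bp. The largest fall was at −41056 bp, where WT libraries held 5.06, 2.72, 4.16 and 4.92 CPM and USP18−/− libraries 2.36, 1.73, 1.24 and 1.13 CPM, untreated before IFN treated. No USP18−/− library reached a WT library, while the 2 untreated WT libraries lay further apart than those of any other group. With IFN in both genotypes, the log2 fold change between them was −1.93 (SE 0.34, edgeR adjusted p = 1.0e-06). In untreated cells it was −0.90 (SE 0.31), but −0.40 without untreated WT replicate 1, −1.30 and called without untreated WT replicate 2, and −1.14 and called without untreated USP18−/− replicate 1. The largest of these windows, at −44096 bp, held 11.7 and 13.9 CPM in IFN treated WT and 5.24 and 5.35 CPM in IFN treated USP18−/− libraries, a log2 fold change of −1.27 (SE 0.20, edgeR adjusted p = 1.1e-07). Its untreated USP18−/− libraries, at 10.6 and 5.68 CPM, did not match each other.

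FOSB, an immediate early paralog of FOS, had the largest proximal difference. Its TSS window, chr19:45467440-45468440, held 0.93 and 2.00 CPM in untreated and 1.78 and 2.05 CPM in IFN treated WT libraries. Untreated USP18−/− libraries held 9.43 and 8.37 CPM and IFN treated ones 14.5 and 11.6 CPM. Every USP18−/− library was above every WT library, and the 2 USP18−/− groups did not overlap. FOSB was higher by a log2 fold change of 2.57 in untreated cells (SE 0.27, edgeR adjusted p = 3.9e-13) and 2.76 with IFN (SE 0.25, edgeR adjusted p = 7.5e-17). The overlapping window at −312 bp gave 2.59 and 2.65. IFN in USP18−/− cells gave 0.55 at the TSS (SE 0.18, edgeR adjusted p = 0.018), under the fold threshold, and the difference of the IFN effects was 0.20 (SE 0.42, edgeR adjusted p = 0.86).

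The highest FOSB window was not at the promoter. At +11117 bp, which overlaps ERCC1 in the GENCODE annotation, the 4 WT libraries held 10.9 to 12.6 CPM and the 4 USP18−/− libraries 20.5 to 24.4 CPM. The log2 fold change with IFN was 1.01 (SE 0.15, edgeR adjusted p = 1.1e-08), which lies at the fold threshold and was not called under 4 other settings, nor without IFN treated WT replicate 2 (0.98), untreated USP18−/− replicate 1 (0.98) or IFN treated USP18−/− replicate 1 (0.85). Both genotypes were separated here in both treatments. The overlapping window at +10606 bp, which shares tags with it, was called higher with IFN too, at 1.09 (SE 0.15, edgeR adjusted p = 2.8e-09). The 2 windows inside FOSB, at +1326 and +1808 bp, and those at −12114 and −11549 bp had log2 fold changes of 0.44 to 0.84 between genotypes and were not called.

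FOSL1 and FOSL2 encode Fra-1 and Fra-2, FOS relatives without the strong activation domain of FOS. FOSL1 had no called window. Its TSS window held 11.2 and 6.72, 8.62 and 8.62, 8.38 and 8.28, and 11.8 and 12.7 CPM in untreated WT, IFN treated WT, untreated USP18−/− and IFN treated USP18−/− libraries. Its log2 fold change was −0.09 in untreated cells (SE 0.19, edgeR adjusted p = 0.79) and 0.50 with IFN (SE 0.18, edgeR adjusted p = 0.021). At FOSL2, the TSS window, chr2:28392293-28393293, held 38.3 and 40.4 CPM in untreated WT and 58.5 and 68.9 CPM in untreated USP18−/− libraries. IFN treated libraries held 49.5 and 37.6 CPM in WT and 78.8 and 72.4 CPM in USP18−/− cells. The genotypes did not overlap, but the log2 fold changes, 0.69 and 0.79, stayed under the threshold, the second of them at 1.00 and called without IFN treated WT replicate 1. At −2549 bp, in an intron of a noncoding transcript, FOSL2 was called higher in untreated USP18−/− cells, with 19.8 and 21.9 CPM against 8.99 and 6.53 CPM and a log2 fold change of 1.43 (SE 0.17, edgeR adjusted p = 1.2e-11). With IFN in both genotypes that window held 15.1 and 19.9 CPM against 9.12 and 10.4 CPM, a log2 fold change of 0.84 (SE 0.17, edgeR adjusted p = 1.1e-05), under the fold threshold.

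A run of 3 overlapping windows upstream of FOSL2, at −14676, −14397 and −13686 bp, fell with IFN in USP18−/− cells, and they share tags. At −14397 bp, chr2:28378015-28379015, WT libraries held 9.71, 8.26, 7.73 and 7.79 CPM, untreated before IFN treated. Untreated USP18−/− libraries held 7.33 and 6.35 CPM, and IFN treated ones 2.93 and 1.5 CPM. The IFN treated USP18−/− libraries lay below all 6 others. The IFN effect was a log2 fold change of −1.61 in USP18−/− cells (SE 0.26, edgeR adjusted p = 2.5e-07) and −0.21 in WT cells (SE 0.20), and the effects differed by −1.41 (SE 0.33, edgeR adjusted p = 0.0011). At −13686 bp the difference was −1.36 (SE 0.35, edgeR adjusted p = 0.0030). At −14676 bp it was −1.07 (SE 0.37, edgeR adjusted p = 0.040), a call that was lost under DESeq2, with no filter on low counts and in 6 of 8 fits with 1 library left out, those without any USP18−/− library or WT replicate 2 of either treatment, with values from −1.31 to −0.79. No searched motif lies in the stretch printed above for −14397 bp. The TSS of FOSL2 did not follow these windows, since IFN gave 0.25 there in USP18−/− cells (SE 0.10).

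**Figure D3:**
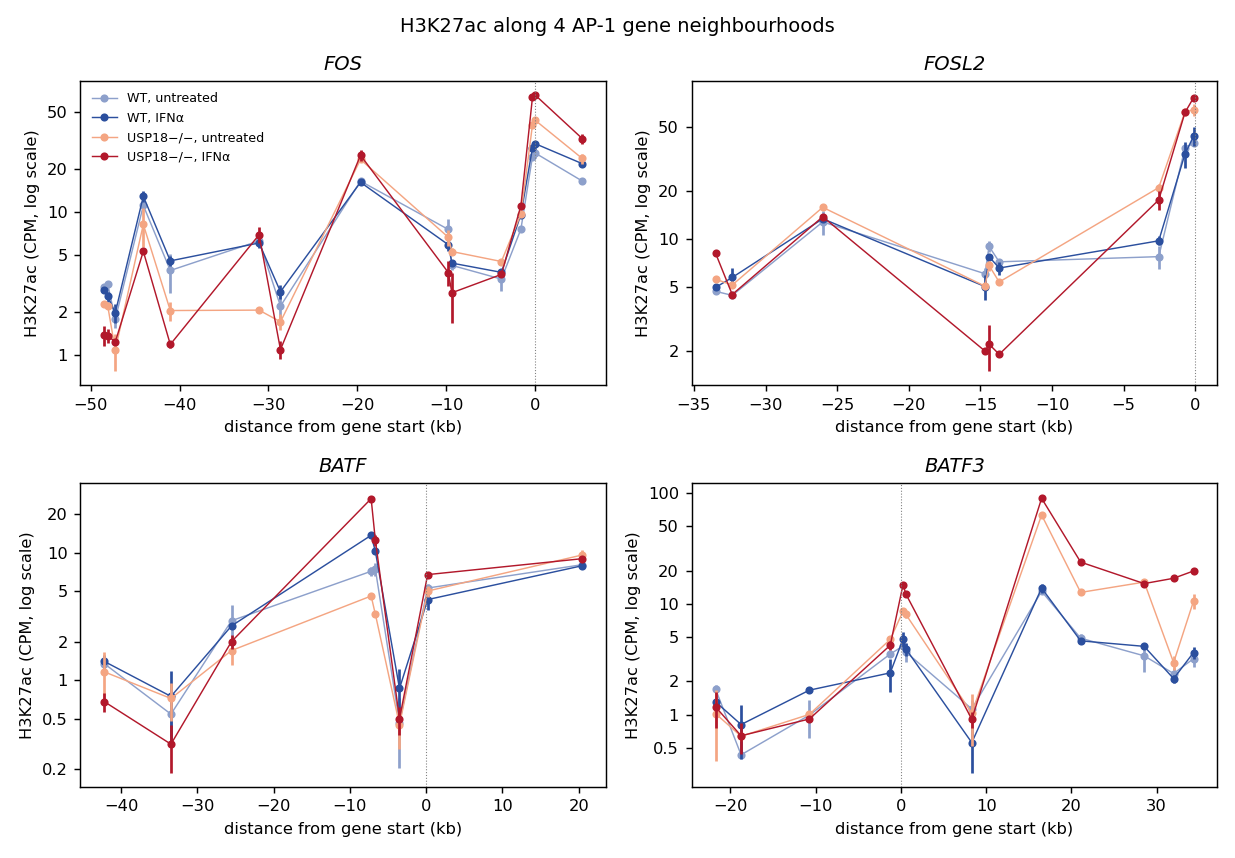
H3K27ac in CPM (log axes) against distance from the TSS in kb for the windows of FOS, FOSL2, BATF and BATF3, as group means with vertical bars from the lower to the higher library. IFN treated USP18−/− cells reach 1.5 to 2.93 CPM at FOSL2 −14397 bp and 25.5 to 27.6 CPM at BATF −7213 bp, and both USP18−/− groups lie above WT from 16503 to 28534 bp downstream of the BATF3 TSS.

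JUN, the partner shared by FOS and BATF proteins and a substrate of the JNK kinases, had low levels. Its TSS window, chr1:58783669-58784669, which also covers the start of LINC01135, held 4.75 and 4.54 CPM in untreated WT and 6.28 and 7.99 CPM in untreated USP18−/− libraries. With IFN it held 3.57 and 3.18 CPM in WT and 8.43 and 6.57 CPM in USP18−/− libraries. With IFN in both genotypes it was called higher in USP18−/− cells by 1.15 (SE 0.24, edgeR adjusted p = 2.9e-05), but not when IFN treated USP18−/− replicate 1 was left out (0.93) or under 2 other scalings. Downstream of JUN, at +28412 bp, IFN treated WT libraries held 7.73 and 6.97 CPM and IFN treated USP18−/− libraries 2.31 and 1.97 CPM. That window was lower in USP18−/− cells by a log2 fold change of −1.77 (SE 0.26, edgeR adjusted p = 1.3e-08), while the TSS was higher. At +31364 bp the fold change was −1.63 (SE 0.52, edgeR adjusted p = 0.0067) at levels of 0.282 to 1.96 CPM, and it was −2.58 without IFN treated USP18−/− replicate 1 and −1.09, not called, without IFN treated USP18−/− replicate 2. Under DESeq2 it was −1.65 and not called either (DESeq2 adjusted p = 0.055).

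JUNB, a JUN relative with weaker activating capacity that is abundant in myeloid cells, had all 3 windows within 3000 bp of its TSS. The TSS window, chr19:12790934-12791934, held 18.2 and 18.9 CPM in untreated and 17.1 and 19.3 CPM in IFN treated WT libraries. It held 37.7 and 42.1 CPM in untreated and 49.0 and 48.7 CPM in IFN treated USP18−/− libraries. The genotypes did not overlap, and within WT cells the treatments did. JUNB was higher by 1.10 on the log2 scale in untreated cells (SE 0.12, edgeR adjusted p = 8.3e-13) and 1.42 with IFN (SE 0.12, edgeR adjusted p = 2.0e-18). The first of these was not called under 2 other scalings, where it reached 0.79.

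At the end of JUNB, at +2130 bp, chr19:12793126-12794126 over the transcription end site and within the HOOK2 gene, the difference was larger. WT libraries held 16.3, 15.6, 17.3 and 16.6 CPM, and USP18−/− libraries 41.8, 46.4, 74.2 and 63.1 CPM, untreated before IFN treated. The 3 levels, WT, untreated USP18−/− and IFN treated USP18−/−, did not overlap. This window was higher by 1.46 on the log2 scale in untreated cells (SE 0.12, edgeR adjusted p = 3.7e-18) and 2.02 with IFN (SE 0.12, edgeR adjusted p = 3.0e-27). The IFN effect in USP18−/− cells was 0.64 (SE 0.10) and differed from that in WT cells by 0.55 (SE 0.17, edgeR adjusted p = 0.019), both under the fold threshold. The highest JUNB window, at −1405 bp, held 40.4 to 55.7 CPM in WT and 74.5 to 111 CPM in USP18−/− libraries and had log2 fold changes of 0.81 in untreated cells and 0.95 with IFN, the latter 1.06 and called without IFN treated WT replicate 1 and 1.07 and called without IFN treated USP18−/− replicate 1. The stretch downstream of JUNB is shown for its 3 kappaB sites and a GAS, in capitals, where the GAS and a kappaB site overlap.
JUNB, +2130 bp, chr19:12793576-12793775: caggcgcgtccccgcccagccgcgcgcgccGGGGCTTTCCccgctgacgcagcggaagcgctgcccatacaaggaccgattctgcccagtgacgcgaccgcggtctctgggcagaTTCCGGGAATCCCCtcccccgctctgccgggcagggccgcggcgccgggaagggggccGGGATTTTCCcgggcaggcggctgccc
Over the whole 1000 bp, 21.8% of all windows hold a kappaB site and 26.2% a GAS, and 15 and 17 of the 65 member windows do.

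JUND, the JUN relative that is expressed in most resting cells, had a TSS window at chr19:18281150-18282150 with 30.9 and 31.4 CPM in untreated WT and 51.3 and 58.6 CPM in untreated USP18−/− libraries. With IFN it held 31.9 and 27.3 CPM in WT and 56.4 and 69.9 CPM in USP18−/− libraries. The genotypes did not overlap in either treatment. Between genotypes, JUND gave a log2 fold change of 0.82 in untreated cells (SE 0.11, edgeR adjusted p = 1.4e-09) and 1.09 with IFN (SE 0.11, edgeR adjusted p = 1.2e-14). The latter fell under the threshold without IFN treated WT replicate 2 or IFN treated USP18−/− replicate 2, at 0.93 at the lowest, and under 3 other scalings.

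BATF, which lacks an activation domain and acts with IRF factors, had low levels at its TSS and no call there. The TSS window, chr14:75522139-75523139, held 5.68 and 4.90, 3.57 and 5.03, 4.54 and 5.49, and 7.01 and 6.48 CPM in untreated WT, IFN treated WT, untreated USP18−/− and IFN treated USP18−/− libraries. The first 3 groups overlapped. At −7213 bp, chr14:75514728-75515728 between JDP2 and BATF, untreated WT libraries held 6.61 and 7.71 CPM and IFN treated WT libraries 13.5 and 13.9 CPM. Untreated USP18−/− libraries held 4.45 and 4.72 CPM and IFN treated ones 27.6 and 25.5 CPM.

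The 4 groups at this BATF window did not overlap, with untreated USP18−/− cells lowest and IFN treated USP18−/− cells highest. IFN gave a log2 fold change of 0.93 in WT cells (SE 0.18, edgeR adjusted p = 0.00031), just under the fold threshold, and this was the largest rise with IFN in WT cells among the 62 windows. The lowest value in that comparison was −0.99 (SE 0.61, edgeR adjusted p = 0.67) at BATF3 +8313 bp, where the 8 libraries held 0.297 to 1.54 CPM. Without untreated WT replicate 2, the IFN effect in WT cells at BATF −7213 bp was 1.05 and called. In USP18−/− cells the window rose by 2.53 (SE 0.17, edgeR adjusted p = 3.5e-23), and the effects differed by 1.60 (SE 0.25, edgeR adjusted p = 6.6e-07). In untreated cells the genotypes differed by −0.65 (SE 0.21, edgeR adjusted p = 0.0095), and with IFN by 0.95 (SE 0.15, edgeR adjusted p = 3.0e-08), both under the fold threshold, the latter 1.01 and called without IFN treated USP18−/− replicate 2. This window holds the other central ISRE core, at chr14:75515128-75515137. Outside the central 200 bp, ISRE cores also lie in the windows at FOS −44096, −41056, −3765 and −1566 bp and JUN +31364 bp. None of these windows was called for IFN in USP18−/− cells. Their log2 fold changes ran from −1.16 at JUN +31364 bp to 0.20 at FOS −1566 bp.

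The overlapping window at −6660 bp, chr14:75515281-75516281, starts past that ISRE core. It held 6.61 and 8.26, 10.8 and 9.74, 3.23 and 3.37, and 11.4 and 13.7 CPM in the same order of groups. It was lower in untreated USP18−/− than WT cells by a log2 fold change of −1.18 (SE 0.23, edgeR adjusted p = 1.5e-05) and rose with IFN in USP18−/− cells by 1.92 (SE 0.21, edgeR adjusted p = 1.0e-12). The difference of the IFN effects was 1.46 (SE 0.29, edgeR adjusted p = 7.4e-05). The remaining BATF windows had no calls, and at −3496 bp the window was too low to test.

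**Figure D4:**
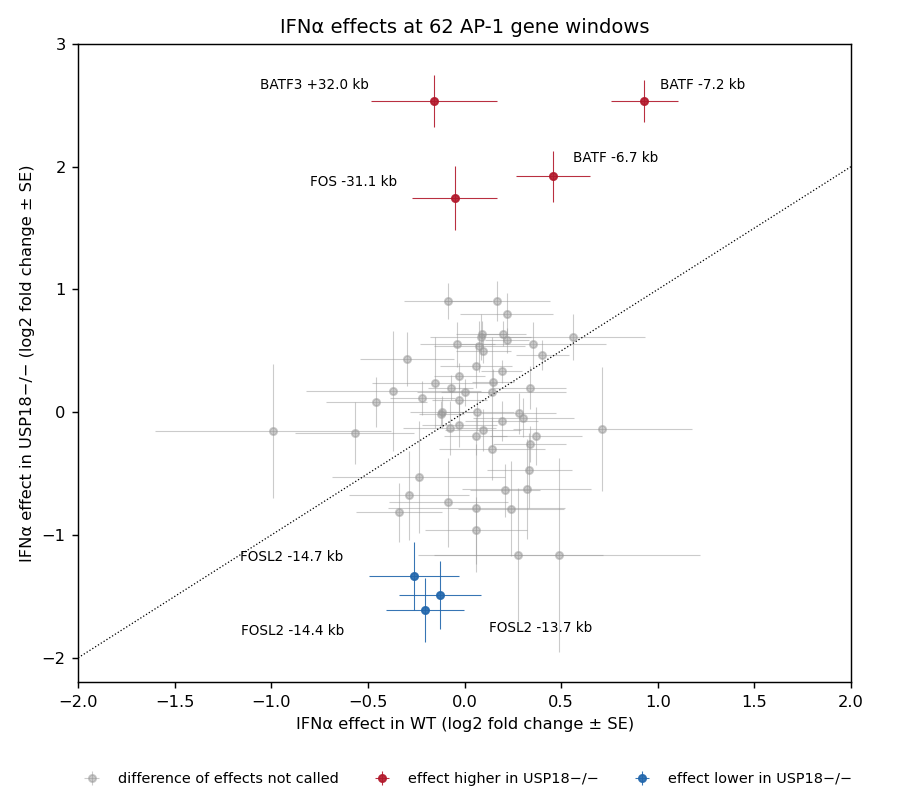
Log2 fold change with IFN in WT cells (horizontal axis) and in USP18−/− cells (vertical axis) for the 62 tested windows, with SE bars and a dotted line of equal effects. The 4 red windows have effects of 1.74 to 2.53 in USP18−/− and −0.16 to 0.93 in WT cells, and the 3 blue FOSL2 windows −1.33 to −1.61 and −0.13 to −0.26.

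BATF3, the factor needed for the cross-presenting lineage of dendritic cells, had the most calls. Of its 11 tested windows, 6 were higher in untreated USP18−/− cells and 7 with IFN in both genotypes, and 0 were lower, where 5.66% and 11.3% of all tested windows were called higher and 10.8% and 13.4% lower. Its TSS window, chr1:212699236-212700236 over the first exon, held 4.24 and 4.08 CPM in untreated and 5.55 and 4.10 CPM in IFN treated WT libraries. It held 8.03 and 9.14 CPM in untreated and 15.2 and 14.6 CPM in IFN treated USP18−/− libraries. WT groups overlapped, and the USP18−/− groups lay above them and apart from each other. The log2 fold change was 1.62 with IFN (SE 0.19, edgeR adjusted p = 1.5e-11) and 1.04 in untreated cells (SE 0.22, edgeR adjusted p = 4.3e-05), the latter not called without untreated USP18−/− replicate 2 (0.95 at the lowest with 1 library left out) or under 4 other settings.

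The strongest BATF3 window lay +16503 bp from its TSS, past the end of the gene at chr1:212682982-212683982. It held 12.9 and 13.1 CPM in untreated and 15.2 and 12.6 CPM in IFN treated WT libraries. Untreated USP18−/− libraries held 66.2 and 60.7 CPM and IFN treated ones 93.1 and 86.4 CPM. All 4 USP18−/− libraries were far above WT, and the WT groups overlapped. It was higher by 2.29 on the log2 scale in untreated cells (SE 0.12, edgeR adjusted p = 8.4e-30) and 2.69 with IFN (SE 0.12, edgeR adjusted p = 1.8e-35). IFN in USP18−/− cells gave 0.50 (SE 0.10, edgeR adjusted p = 1.5e-05), under the fold threshold. Its central 200 bp held none of the searched motifs and are shown because no other member window differed more in untreated CPM between genotypes.
BATF3, +16503 bp, chr1:212683382-212683581: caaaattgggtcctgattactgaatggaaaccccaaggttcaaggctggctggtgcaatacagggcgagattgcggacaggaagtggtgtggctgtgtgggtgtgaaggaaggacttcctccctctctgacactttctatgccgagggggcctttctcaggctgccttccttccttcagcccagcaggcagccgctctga

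Further windows downstream, between BATF3 and ATF3, were also called. At +28534 bp, WT libraries held 2.45 to 4.34 CPM and USP18−/− libraries 15.1 to 16.1 CPM, with a log2 fold change of 2.23 in untreated cells (SE 0.21, edgeR adjusted p = 8.6e-16). The 2 USP18−/− groups overlapped there. At +34327 bp, over LINC02773, and at +21085 bp the log2 fold changes were 1.70 and 1.37 in untreated cells and 2.44 and 2.36 with IFN. The median over the 306 other windows within 5 Mb of the BATF3 TSS was −0.03 in both comparisons.

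At +31988 bp, chr1:212667497-212668497, the order of the groups was another. WT libraries held 2.07, 2.63, 2.28 and 1.95 CPM, untreated before IFN treated. Untreated USP18−/− libraries held 2.53 and 3.37 CPM and IFN treated ones 16.8 and 17.3 CPM. Only the IFN treated USP18−/− libraries stood apart from the rest at this window. IFN in USP18−/− cells gave a log2 fold change of 2.53 (SE 0.21, edgeR adjusted p = 4.5e-18) and in WT cells −0.16 (SE 0.33, edgeR adjusted p = 0.94). The effects differed by 2.69 (SE 0.40, edgeR adjusted p = 1.1e-07), the largest difference among the member windows. In untreated cells the genotypes differed by 0.31 (SE 0.30, edgeR adjusted p = 0.47). Its printed stretch holds TGATTCA, a match to the wider TGANTCA pattern only, at chr1:212668032-212668038, and no exact ISRE core.

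Other bZIP factors that pair with FOS or JUN were read at their TSS windows. Of 9 such genes, 3 were higher in untreated USP18−/− than WT cells (ATF3, MAF and MAFF). With IFN in both genotypes, 3 were higher in USP18−/− cells (ATF3, BATF2 and MAFF), and 0 were lower in either comparison. The median log2 fold changes of the 9 genes were 0.77 and 0.99, beside 0.31 and 0.35 over the TSS windows of all 16104 genes, of which 6.51% and 13.2% were called higher. ATF3, a stress-induced repressor, held 8.06, 5.08, 5.85 and 5.85 CPM in WT and 15.9, 12.5, 16.4 and 13.5 CPM in USP18−/− libraries, a log2 fold change of 1.13 in untreated cells (SE 0.19, edgeR adjusted p = 5.2e-07). BATF2, an interferon-induced BATF relative, held 3.81 to 7.51 CPM in the first 3 groups and 49.6 and 45.6 CPM in IFN treated USP18−/− libraries. IFN at BATF2 gave a log2 fold change of 0.46 in WT cells (SE 0.23). In USP18−/− cells it gave 2.81 (SE 0.15), and the effects differed by 2.36 (SE 0.28, edgeR adjusted p = 2.0e-10). MAF was called at 0.207 to 1.22 CPM, near the limit of the filter.

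Upstream kinases and their feedback genes were read in the same way. Over the TSS windows of all genes, 3.91% were called lower in untreated cells and 4.92% with IFN in both genotypes, beside the shares higher given above. IFN in USP18−/− cells gave 3.76% higher and 1.76% lower, and the difference of the IFN effects 2.51% and 1.13%. Of 14 MAP kinase genes, 0 were called in any of the 5 comparisons, and their median was 0.21 in untreated and 0.12 in IFN treated cells. Of 6 SRF and ETS partner genes, 1 was lower in untreated USP18−/− than WT cells and 2 with IFN in both genotypes. ELK1, the ETS factor that joins SRF at the FOS promoter, held 4.13 and 5.08 CPM in untreated WT, 2.38 and 1.74 CPM in IFN treated WT and 0.192 to 0.710 CPM in USP18−/− libraries. Between genotypes its log2 fold change was −3.45 in untreated cells (SE 0.43, edgeR adjusted p = 9.1e-11). The IFN effect on ELK1 in WT cells was −1.16 (SE 0.32, edgeR adjusted p = 0.053), which was not called. MKL1, an SRF coactivator, was lower in USP18−/− than WT cells with IFN in both genotypes, by a log2 fold change of −1.22 (SE 0.27). Of 8 MAP kinase phosphatase genes, DUSP5 and DUSP16 were higher in USP18−/− than WT cells with IFN in both genotypes, by 1.25 and 1.57. The IFN effect on DUSP16 in USP18−/− cells was 1.12 (SE 0.28, edgeR adjusted p = 0.0010).

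Of 11 genes known as AP-1 targets, 8 had a tested TSS window, and 1 was called. PLAU, which encodes urokinase, held 36.6, 35.4, 37.3 and 41.3 CPM in WT, 26.4 and 37.4 CPM in untreated USP18−/− and 11.4 and 13.5 CPM in IFN treated USP18−/− libraries, at −1976 bp. The IFN effect on PLAU was −1.35 in USP18−/− cells (SE 0.14), 0.13 in WT (SE 0.12), and the effects differed by −1.48 (SE 0.18, edgeR adjusted p = 4.8e-10). Among the monocyte markers, with IFN in both genotypes, CD14 was higher in USP18−/− than WT cells by 1.27 (SE 0.23) and LYZ lower by −1.12 (SE 0.19). MPO was lower in USP18−/− than WT cells by −1.61 in untreated and −3.62 in IFN treated cells. MPO, the myeloperoxidase of granulocyte and monocyte precursors, held 48.9 to 56.7 CPM in the WT libraries, 16.4 and 18.4 CPM in untreated and 4.79 and 3.85 CPM in IFN treated USP18−/− libraries. COL1A1, a marker of other cell types, was higher in USP18−/− than WT cells with IFN in both genotypes. The log2 fold change was 1.00 (SE 0.30, edgeR adjusted p = 0.0040), at 1.98 to 5.26 CPM. The part of these marker shifts in the AP-1 values was not tested.

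For the 6 AP-1 genes with a call at the TSS window, the genes most like them in their changes from untreated WT cells were sought among 16095 other TSS windows. Likeness was the root mean square difference of the 3 log2 fold changes, for IFN treated WT, untreated USP18−/− and IFN treated USP18−/− cells, which all share the untreated WT libraries. The nearest 2 genes were AP1G1 and TPD52L2 for FOS (0.03 and 0.03), LINC01093 and SFT2D2 for FOSB (0.07 and 0.12), MARF1 and ADGRG3 for JUN (0.05 and 0.05), IPO8 and PLAGL2 for JUNB (0.03 and 0.04), TBX1 and SLC4A1AP for JUND (0.02 and 0.02), and TNFRSF10B and EBI3 for BATF3 (0.03 and 0.04). FOSB had the least close neighbours. Whether these distances are smaller than a search of 16095 windows on 3 values gives by itself was not tested. Likeness in these values does not show a shared function or regulation.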

How the data were processed

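H3K27ac ChIP-seq was analysed in 4 groups of 2 THP-1 libraries; the 8 input libraries were not analysed here. The authors mapped reads to hg38 with Bowtie2 and used HOMER to count raw tags in windows of 1000 bp placed on merged ATAC-seq peaks. The deposited values are expected counts in steps of 0.5 tags, not normalized by the authors, with 0 unmapped value columns. They were rounded to the nearest whole count, and upward at 0.5.

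Windows with at least 10 counts in 2 of 8 libraries were tested in all 8 libraries with edgeR 4.0.16 (R 4.3.3), TMM scaling, the quasi-likelihood test and Benjamini-Hochberg adjustment over 123276 windows. Thresholds were an adjusted p under 0.05 and a log2 fold change over 1 in size. The common biological coefficient of variation was 0.0737, and group values are means of 2 libraries. DESeq2 1.42.0 was an alternative. Members and gene lists were chosen with earlier results of these data known. Named windows are, per gene, the one nearest the TSS and the one with the highest mean CPM, and per comparison up to 5 largest rises and 5 largest falls among called members; listed genes are named where called. A few items of these lists and 1 sequence are not reported here, and the list counts leave them out. Some windows overlapping a named one, the windows at FOSL2 −2549 bp, JUNB +2130 bp, FOS −44096 bp and FOSB +1326 and +1808 bp, BATF3 +8313 and +21085 bp, and the sequences printed were chosen after their values were seen. Motifs were searched as exact strings in hg38 with Python 3.11.15, the central 200 bp apart.

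The steps were tested on simulated data for IFN in USP18−/− cells over 123276 windows. Of 200 windows changed 3-fold, 140 were recovered, with 4 false calls; among the 88 averaging 30 counts or more, 86 were. Same-numbered libraries did not deviate together, so replicate numbers were not used as pairs. Replicates of a group differed beyond sampling noise, with a chi-square per degree of freedom of 1.34 to 1.74.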

Additional observations from a re-analysis of the deposited data

Results flagged for a closer look

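At 7 member windows the IFN effect differed between USP18−/− and WT cells by the direct test of the difference (quasi-likelihood F test of edgeR, Benjamini-Hochberg adjusted). As shares of the 62 tested members these were 6.45% higher and 4.84% lower, beside 4.66% and 2.51% of all tested windows. Given as log2 differences, USP18−/− minus WT, the effect was higher by 2.69 at BATF3 +31988 bp, 1.80 at FOS −31057 bp, 1.60 at BATF −7213 bp and 1.46 at BATF −6660 bp. It was lower at the 3 overlapping FOSL2 windows, with −1.07 at −14676 bp, −1.41 at −14397 bp and −1.36 at −13686 bp. The 2 BATF windows overlap each other as well, so the 7 windows stand for 4 places. The libraries of the 2 groups compared did not overlap at any of them for IFN in USP18−/− cells. With only 2 libraries a group, single libraries could not be tested for standing apart from their group.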

How the results depend on the processing

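Counts of called members are given as higher and lower. With no fold threshold they were 1 and 0 for IFN in WT cells, 27 and 5 for untreated genotypes, 33 and 12 with IFN in both genotypes, 19 and 6 for IFN in USP18−/− cells, and 7 and 4 for the difference of the IFN effects. Within 10000 bp of a TSS, which leaves 30 members, they were 7 and 1, 10 and 0, 2 and 0, and 2 and 0 for the last 4 comparisons. Scaling by the sum of counts gave 8 and 4 for untreated and 11 and 12 for IFN treated genotypes. Keeping 1 window per chain of overlapping windows left 1 lower each in untreated genotypes, with IFN in USP18−/− cells and in the difference (1, 1 and 1). With 1 library left out, the counts ranged from 0 to 1 higher for IFN in WT cells, where untreated WT replicate 2 gave the 1, from 2 to 4 lower for untreated genotypes (4 without untreated WT replicate 1 or either untreated USP18−/− library), and from 3 to 5 lower for IFN in USP18−/− cells (5 without untreated USP18−/− replicate 1 or IFN treated USP18−/− replicate 2). The other counts under DESeq2, the filters, the groups compared alone, unrounded tags, mapped tags as library size and separate scaling of proximal and distal windows stayed within 1.5 times; the last 3 were chosen after seeing the data. With the replicate number as a block, the counts were 0 and 0, 11 and 2, 17 and 9, 4 and 3, and 4 and 3, as without it; same-numbered libraries deviated with r from −0.003 to 0.046, so they share only a number. Of 2195 values for the 25 named windows under alternatives, 0 called values changed direction, 34 lost and 18 gained a call, and 94 values with no call moved by more than their SE. Depth limits the windows under about 1 CPM, where 10 counts decide a test.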

Other observations

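The 3 member windows too low to test were BATF −3496 bp, at 0.207 to 1.23 CPM, BATF3 −18752 bp, at 0.396 to 1.23 CPM, and JUN +14667 bp, at 0.0991 to 0.799 CPM. The rule's limit of 50000 bp left out 2 FOS windows. Just inside it, the windows at −48500 and −48101 bp had means of 2.99 and 3.13 CPM in untreated WT and 1.37 and 1.36 CPM in IFN treated USP18−/− libraries. Just outside, those at −50186 and −50551 bp had 4.31 and 3.84 CPM and 2.47 and 2.70 CPM in the same groups.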
